A study of Mus musculus with 8 samples.

Results

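The expression of 7 alpha-defensin genes (*Defa30*, *Defa24*, *Defa5*, *Defa17*, *Defa21*, *Defa22* and *Defa26*) was examined by RNA-seq in the colon of chimeric mice that carried *penk*-/- or *penk*+/+ bone marrow. Their summed normalized count averaged 74.9 ± 40.1 in the *penk*-/- group and 276 ± 83.5 in the *penk*+/+ group (SD, n = 4 each). These 7 of the 26008 genes of the table were picked by name with their genotype difference already known, so that this difference is described and not tested. The chimeras were male wild-type C57BL/6JRj mice, lethally irradiated as young adults and grafted with bone marrow of male donors, either knocked out for preproenkephalin (Penk-/- in the labels) or wild type (Penk+/+). The biopsies were taken several months after the graft. Irradiation and engraftment are common to both groups, and the deletion concerns cells derived from the marrow, whereas the gut epithelium is that of wild-type recipients. Each genotype counted 4 mice, with 1 library of poly-A RNA per mouse. Reads counted in the genes of the table were 33.1 M to 50.7 M per library (median 38.5 M). The question was whether proenkephalin in hematopoietic cells bears on the colon at steady state.

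Alpha-defensins are small cationic peptides that disrupt bacterial membranes. In the mouse they are made by Paneth cells, which sit at the base of the crypts of the small intestine, store the peptides in granules and release them into the crypt lumen. Each is made as a precursor, from which the protease matrilysin (*Mmp7*) frees the active peptide, held together by disulfide bridges between 6 cysteines. The healthy mouse colon holds few or no Paneth cells, and mouse neutrophils, unlike human ones, make no alpha-defensins.

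The 7 genes lie on the forward strand of chromosome 8 (GRCm39), within 709.9 kb from 21515557 to 22225490. From the proximal end, they are *Defa21* (21515557 to 21516533), *Defa30* (21609255 to 21625621), *Defa22* (21652290 to 21653265), *Defa5* (21787455 to 21788391), *Defa26* (22108199 to 22108988), *Defa17* (22145772 to 22146753) and *Defa24* (22224506 to 22225490). The GENCODE M39 annotation of GRCm39 holds 46 genes of the family, of which 29 code for a protein and 17 are pseudogenes, and 14 of them are in the table. Each of the 7 codes for a precursor of 93 amino acids with 6 cysteines in its last 45 residues. The last coding exon, which holds the mature peptide, is printed below on the forward strand of GRCm39. Its differences are among those that allow a read to be given to 1 copy rather than another. Capitals mark the bases that differ from the base held by a majority of the 7 genes at that position. Positions at which no base has such a majority are left in lower case, although the genes differ there. The exons span chr8:21625410-21625519 (*Defa30*), chr8:22225284-22225393 (*Defa24*), chr8:21788188-21788297 (*Defa5*), chr8:22146548-22146657 (*Defa17*), chr8:21516330-21516439 (*Defa21*), chr8:21653062-21653171 (*Defa22*) and chr8:22108789-22108898 (*Defa26*).
*Defa30*: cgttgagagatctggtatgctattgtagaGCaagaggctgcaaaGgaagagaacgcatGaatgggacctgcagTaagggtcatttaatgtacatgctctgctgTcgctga
*Defa24*: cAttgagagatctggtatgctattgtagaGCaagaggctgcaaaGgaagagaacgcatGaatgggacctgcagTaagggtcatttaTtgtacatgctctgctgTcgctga
*Defa5*: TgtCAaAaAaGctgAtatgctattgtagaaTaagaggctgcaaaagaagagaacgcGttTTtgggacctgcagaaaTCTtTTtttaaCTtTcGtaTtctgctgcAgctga
*Defa17*: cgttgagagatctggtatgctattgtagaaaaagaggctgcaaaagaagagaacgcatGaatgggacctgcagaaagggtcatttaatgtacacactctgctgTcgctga
*Defa21*: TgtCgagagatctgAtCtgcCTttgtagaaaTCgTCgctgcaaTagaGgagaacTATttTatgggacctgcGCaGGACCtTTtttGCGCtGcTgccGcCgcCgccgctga
*Defa22*: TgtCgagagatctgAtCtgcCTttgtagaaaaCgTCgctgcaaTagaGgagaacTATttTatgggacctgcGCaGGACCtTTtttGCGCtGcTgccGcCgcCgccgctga
*Defa26*: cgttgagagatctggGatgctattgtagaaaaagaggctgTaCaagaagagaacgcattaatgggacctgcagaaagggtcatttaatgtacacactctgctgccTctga

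The exons were of 110 bases each, and 54 of the 110 positions differed between at least a pair of genes. *Defa17* (2 bases unlike the majority), *Defa26* (4), *Defa30* (6) and *Defa24* (8) formed a close group, *Defa5* stood apart with 22, and *Defa21* and *Defa22* had 34 and 33. Over the whole coding sequence, *Defa21* and *Defa22* were identical at 99.3% of 282 positions, *Defa30* and *Defa24* at 98.6%, and *Defa30* and *Defa17* at 97.2%. The 21 pairs ranged from 80.7% to 99.3% (median 83.3%), and their precursors shared from 63.4% to 97.8% of their amino acids (median 68.8%).

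Such likeness limits what the count of a single copy measures. Of all stretches of 100 bases of a transcript, 99.7% in *Defa30*, 100% in *Defa24* and 98.9% in *Defa26* occurred in no annotated transcript of another gene. This share was 59.0% in *Defa21* and 59.4% in *Defa22*, which mostly share with each other, 11.6% in *Defa5*, which shares most with *Defa34*, and 8.7% in *Defa17*, which shares most with *Defa3*. With stretches of 50 bases it fell to 52.0% in *Defa30* and 0% in *Defa5*. How reads matching several copies were counted is not given in the sources used here. The counts of *Defa5*, *Defa17*, *Defa21* and *Defa22* are therefore uncertain as to the copy. Sums are given below for *Defa21* with *Defa22*, and for *Defa17* with *Defa30*, *Defa24* and *Defa26*. No such sum is given for *Defa5*. As *Defa34* and *Defa3* are not in the table, the sums do not settle the copy for *Defa5* and *Defa17*. The gene *Defa30* also overlaps the pseudogene *Defa-ps4*, on the same strand, in the most upstream of its exons.

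**Figure D1:**
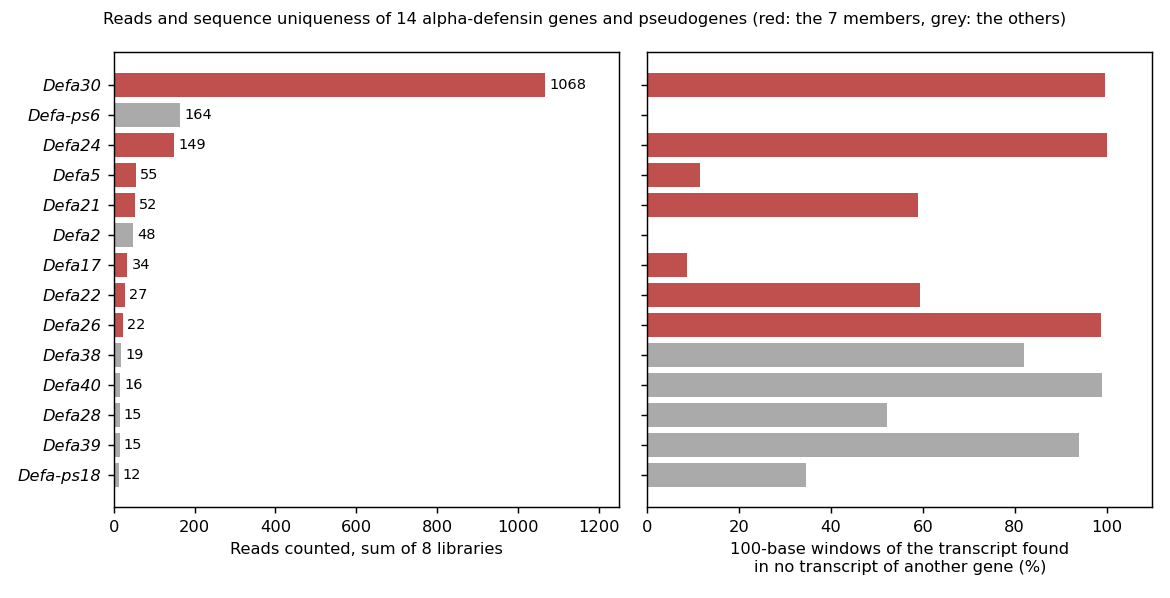
Reads counted over the 8 libraries (left) and share of 100-base stretches of the transcript that occur in no transcript of another gene (right, %) for the 14 alpha-defensin genes and pseudogenes in the table, with the 7 genes studied in red and the others in grey. *Defa30* had 1068 reads and *Defa24* 149, both with nearly all stretches unique, whereas *Defa-ps6* and *Defa2* had none.

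RefSeq (GRCm38.p6) gave a promoter for 3 of the 7 genes. The stretches upstream of the start site are shown because all 3 genes had lower means in *penk*-/- chimeras. They cover chr8:21025424-21025529 (*Defa21*), chr8:21134499-21134604 (*Defa30*) and chr8:21162156-21162261 (*Defa22*) of GRCm38.p6, forward strand, with capitals on TCAAAG, the core of the site bound by the TCF factors of the Wnt pathway, and on TATAAA.
*Defa21*: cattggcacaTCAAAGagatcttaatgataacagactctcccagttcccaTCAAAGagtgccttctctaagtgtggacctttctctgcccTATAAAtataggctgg
*Defa30*: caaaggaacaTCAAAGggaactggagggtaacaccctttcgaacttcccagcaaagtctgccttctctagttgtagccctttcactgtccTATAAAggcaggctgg
*Defa22*: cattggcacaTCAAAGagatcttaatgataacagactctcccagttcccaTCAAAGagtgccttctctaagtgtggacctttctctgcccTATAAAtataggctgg

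By its distance to those of *Defa21* and *Defa22*, the *Defa30* stretch falls inside the GRCm39 span given above for *Defa30*. It precedes a start within that span, downstream of its most upstream exon. *Defa21* and *Defa22* were identical over these 106 bases and shared 79 of them (74.5%) with *Defa30*. TCAAAG occurred 2 times in *Defa21* and *Defa22* and once in *Defa30*, with no copy on the reverse strand, and in each gene 80 bases separated the most upstream copy from TATAAA. Among 32851 promoters, taken over the 250 bases upstream of the start, 13.8% held TCAAAG on either strand and 7.59% held TATAAA on the forward strand.

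*Defa30* was the most abundant of the 7 genes in every mouse. Its normalized counts were 21.2, 54.9, 82.1 and 82.9 in replicates 1 to 4 of the *penk*-/- chimeras, and 259, 97.0, 267 and 206 in those of the *penk*+/+ chimeras. The groups did not overlap, the highest *penk*-/- mouse being below the lowest *penk*+/+ mouse. The means were 60.3 ± 29.1 and 207 ± 78.2 (SD, n = 4 each), a difference of -1.84 (SE 0.56) on the scale of log2(normalized count + 1), used for all differences given here. Reads were obtained from the normalized counts, 1 read being worth 0.727 to 1.24 normalized counts depending on the library. The 8 libraries held 1068 reads of *Defa30*, from 21 in *penk*-/- replicate 1 to 261 in *penk*+/+ replicate 3.

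*Defa24* followed the same order at a lower level. It had 1.01, 3.43, 10.2 and 12.2 normalized counts in *penk*-/- and 37.3, 22.8, 32.7 and 29.2 in *penk*+/+ chimeras, again without overlap. The means were 6.69 ± 5.32 and 30.5 ± 6.12 (SD, n = 4 each), and the log2 difference was -2.37 (SE 0.65). The *penk*-/- libraries held 1, 3, 14 and 11 reads of it and the *penk*+/+ libraries 24 to 34. *Defa30* and *Defa24* were the 2 genes of the 7 with a mean of at least 10 over the 8 libraries, the minimum for the fit across all genes. The 5 others are described by their values alone.

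*Defa5*, *Defa17* and *Defa26* were close to the limit of detection in *penk*-/- chimeras. A value of 0 means that no read was counted, which at these depths allows up to 3 reads, or 2.18 to 3.73 normalized counts depending on the library. This limit covers counting error only. *Defa5* had 0, 0, 3.63 and 4.42 normalized counts in *penk*-/- and 6.22, 11.4, 5.11 and 20.6 in *penk*+/+ chimeras. Its means were 2.01 ± 2.35 and 10.8 ± 7.05 (SD, n = 4 each; log2 difference -2.22, SE 0.79), from 55 reads in all.

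*Defa17* had 0, 1.14, 2.18 and 3.31 normalized counts in *penk*-/- and 11.2, 4.75, 6.13 and 6.00 in *penk*+/+ chimeras. The means were 1.66 ± 1.42 and 7.02 ± 2.85 (SD, n = 4 each; log2 difference -1.72, SE 0.51), from 34 reads. *Defa26* was counted in a single *penk*-/- mouse, with 1 read in replicate 4 (1.10 normalized counts), and in all *penk*+/+ mice (4.98, 2.85, 6.13 and 6.86). Its means were 0.276 ± 0.552 and 5.21 ± 1.75 (SD, n = 4 each; log2 difference -2.32, SE 0.35), from 22 reads. The groups overlapped for none of these 3 genes, although the *penk*-/- values of all of them rest on 0 to 5 reads per library.

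The near-identical *Defa21* and *Defa22* overlapped between the genotypes. *Defa21* had 0, 2.29, 7.27 and 1.10 normalized counts in *penk*-/- and 14.9, 6.66, 6.13 and 12.0 in *penk*+/+ chimeras, *penk*-/- replicate 3 being above 2 of the *penk*+/+ mice. The means were 2.67 ± 3.21 and 9.93 ± 4.26 (SD, n = 4 each; log2 difference -1.91, SE 0.70). *Defa22* had 1.01, 1.14, 0.727 and 2.21 in *penk*-/- and 7.47, 10.5, 0 and 4.29 in *penk*+/+ chimeras, the 0 in *penk*+/+ replicate 3 being the lowest of the 8 libraries. The means were 1.27 ± 0.648 and 5.55 ± 4.48 (SD, n = 4 each; log2 difference -1.11, SE 0.81). This difference was -0.68 without *penk*+/+ replicate 2 and -1.86 without *penk*+/+ replicate 3. Summed, the pair had 1.01, 3.43, 7.995 and 3.31 in *penk*-/- and 22.4, 17.1, 6.13 and 16.3 in *penk*+/+ chimeras, and *penk*-/- replicate 3 still exceeded *penk*+/+ replicate 3.

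**Figure D2:**
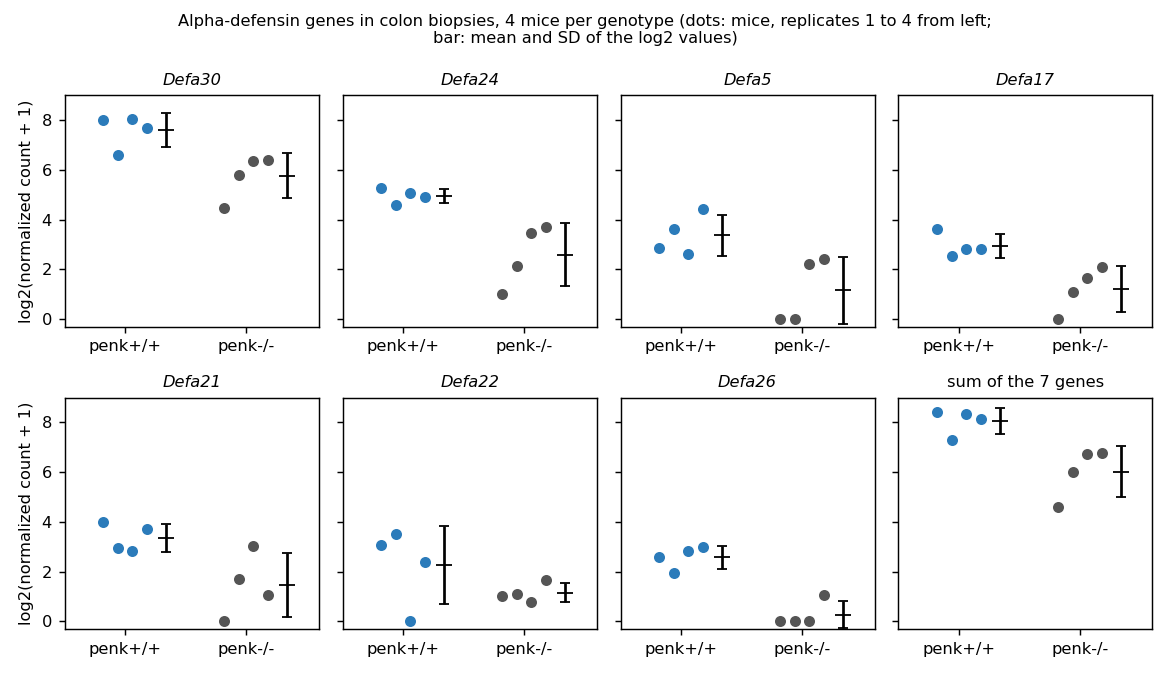
Log2(normalized count + 1) of each of the 7 genes and of their sum in 4 *penk*+/+ (blue) and 4 *penk*-/- (grey) chimeras. Dots are mice and bars the mean and SD of the log2 values. The groups are apart for *Defa30*, *Defa24*, *Defa5*, *Defa17*, *Defa26* and the sum, and overlap for *Defa21* and *Defa22*.

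All 7 genes had a lower mean in *penk*-/- chimeras, with a median log2 difference of -1.91 (range -2.37 to -1.11), and 5 of the 7 were lower without overlap. Of all 26008 genes in the table, 49.5% had a negative difference and 2.45% were lower without overlap, and the median difference was 0.00241. Among the 19127 genes with a mean of at least 10, 2.74% were lower and 2.89% higher without overlap. Of the 28 values of the 7 genes in each genotype, 7 were 0 in *penk*-/- and 1 was 0 in *penk*+/+ chimeras. The genes were chosen on this contrast, and nothing is read from these counts. As the biopsies are bulk tissue, fewer cells making a transcript and less transcript per cell cannot be told apart.

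Per length, the levels of *penk*+/+ chimeras were 482 normalized counts per kb of transcript for *Defa30*, 72.3 for *Defa24*, 28.8 for *Defa5*, 23.6 for *Defa21*, 16.7 for *Defa17*, 13.99 for *Defa26* and 13.3 for *Defa22*. In *penk*-/- chimeras they were 140 for *Defa30*, 15.9 for *Defa24*, and from 0.743 (*Defa26*) to 6.33 (*Defa21*) for the others. *Defa30* was above *Defa24* in each of the 8 mice. *Defa24* was above the 5 lower genes in 7 of them, the exception being *penk*-/- replicate 1, in which 1 read each was counted for *Defa24* and *Defa22*. The ranges of the 5 lower genes overlapped, and their order is not resolved.

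The sum of the 7 genes, which is not affected by an exchange of reads among them, was 23.2, 63.0, 106 and 107.2 normalized counts in *penk*-/- and 341, 156, 323 and 285 in *penk*+/+ chimeras. *Penk*-/- replicate 1 was the lowest mouse of its group and *penk*+/+ replicate 2 of its own, and the groups did not overlap. The log2 difference of the sum was -2.03 (SE 0.57). Since *Defa30* makes up most of the sum, it was also computed without it, a choice made after the values were seen. The other 6 genes summed to 2.02, 8.01, 24.0 and 24.3 in *penk*-/- and 82.1, 59.0, 56.2 and 78.9 in *penk*+/+ chimeras, with means of 14.6 ± 11.3 and 69.0 ± 13.4 (SD, n = 4 each; log2 difference -2.59, SE 0.74). The close group of *Defa30*, *Defa24*, *Defa17* and *Defa26* summed to 68.9 ± 35.8 and 250 ± 87.1 (SD, n = 4 each; log2 difference -1.97).

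**Figure D3:**
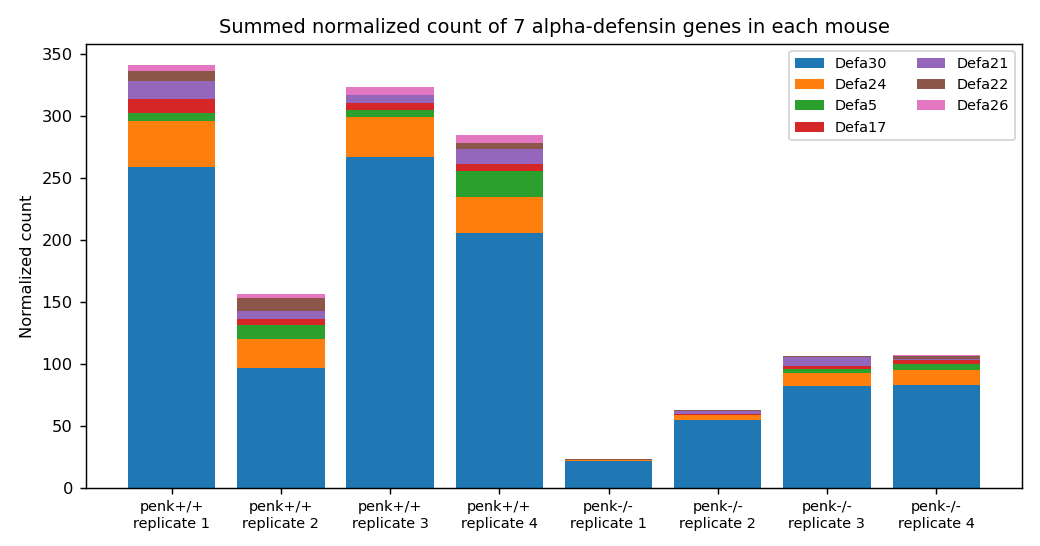
Summed normalized count of the 7 genes in each mouse, with the contribution of each gene in colour. The 4 *penk*-/- chimeras on the right lie between 23.2 and 107.2, the 4 *penk*+/+ chimeras on the left between 156 and 341, and *Defa30* forms the largest segment in each mouse.

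The 7 genes together took 23, 55, 146 and 97 reads in *penk*-/- and 274, 164, 316 and 332 reads in *penk*+/+ libraries, or 0.581 to 2.88 and 4.06 to 8.46 per M counted reads. *Defa30* took 91.3% of them (exact 95% confidence interval 72.0% to 98.9%) in *penk*-/- replicate 1, 87.3% (75.5% to 94.7%) in replicate 2, 77.4% (69.7% to 83.9%) in replicate 3 and 77.3% (67.7% to 85.2%) in replicate 4. In *penk*+/+ replicates 1 to 4 its share was 75.9% (70.4% to 80.9%), 62.2% (54.3% to 69.6%), 82.6% (78.0% to 86.6%) and 72.3% (67.1% to 77.0%). The shares of the genotypes overlapped, and the intervals, which cover counting error only, were widest in the libraries with the fewest reads. The share of *Defa24* was 4.35% to 11.3% in *penk*-/- and 10.1% to 14.6% in *penk*+/+ libraries.

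The 3 best-covered sequences of the close group varied together from mouse to mouse. On the log2 scale over the 8 libraries, Pearson's r was 0.957 between *Defa30* and *Defa24* and 0.980 between *Defa24* and *Defa17*, and 0.877 and 0.942 after the mean of each genotype was subtracted. *Defa21* and *Defa22*, in spite of their sequence, had r = 0.419, and 0.095 after this subtraction. These are descriptions over 8 libraries, and genes that can exchange reads are not independent measurements.

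Of the 7 other alpha-defensin genes and pseudogenes in the table, 6 also had a lower mean in *penk*-/- chimeras. *Defa2*, a protein-coding copy none of whose stretches was unique at any length tried, had 0, 3.43, 5.09 and 5.52 normalized counts in *penk*-/- and 12.4, 3.80, 4.09 and 12.9 in *penk*+/+ chimeras (log2 difference -1.17, SE 0.76, and -0.55 without *penk*-/- replicate 1), and the groups overlapped. The pseudogene *Defa-ps6*, named after its values were seen, had 1.01, 2.29, 11.6 and 9.94 in *penk*-/- and 39.8, 14.3, 45.0 and 38.6 in *penk*+/+ chimeras. Its groups did not overlap, and its log2 difference was -2.57 (SE 0.75). No test is given for it, since it reached the mean of 10 through the *penk*+/+ mice. None of its sequence is unique, and it shares stretches with *Defa17*, *Defa21*, *Defa22* and *Defa30*, and its count is uncertain as to the copy. *Defa39* went the other way (log2 difference 0.16), with 7.27 normalized counts in *penk*-/- replicate 3, 4.29 in *penk*+/+ replicate 4 and 0 in the other mice. The 7 together had 2.02, 8.01, 31.3 and 21.0 in *penk*-/- and 64.7, 20.9, 68.5 and 66.0 in *penk*+/+ chimeras. These groups overlapped through *penk*+/+ replicate 2, and the log2 difference was -2.11 (SE 0.86). Without *penk*-/- replicate 1 it was -1.46. *Gm15056*, listed with the alpha-defensins, is the beta-defensin *Defb52* by its RefSeq synonym and was left out of these sums. Its mean was 1.82 in *penk*-/- and 1.12 in *penk*+/+ chimeras, and the groups overlapped.

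Genes listed as products of Paneth cells overlapped between the genotypes. Of 12 listed genes, 11 were tested and none was called by limma at an adjusted p below 0.05. None had an unadjusted p below 0.05 either, the smallest adjusted p was 0.681, and the median log2 difference was -0.15. The list is not limited to secreted products: its highest gene was *Nupr1*, whose own difference was this median. *Mmp7*, also listed, varied with a prostate gene, as given below. Among all 19127 genes tested, 0.0% were called and 9.63% had an unadjusted p below 0.05. *Lyz1*, the lysozyme of Paneth granules, had 291, 425, 523 and 786 normalized counts in *penk*-/- and 195, 424, 528 and 818 in *penk*+/+ chimeras. Its ranges covered each other (log2 difference 0.12, SE 0.42, adjusted p = 0.956 with limma; exact permutation test, two-sided, p = 0.886).

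*Itln1*, a lectin of Paneth and goblet cells, had 60.6, 36.6, 42.2 and 40.9 in *penk*-/- and 61.0, 39.9, 30.7 and 39.4 in *penk*+/+ chimeras (log2 difference 0.09, limma adjusted p = 0.940). *Mptx2*, a pentraxin of Paneth cells, had 54.5, 34.3, 39.2 and 30.9 in *penk*-/- and 48.5, 34.2, 23.5 and 31.7 in *penk*+/+ chimeras (log2 difference 0.21, limma adjusted p = 0.847). *Ang4*, an antimicrobial ribonuclease, had 20.2, 32.1, 29.1 and 1.10 in *penk*-/- and 28.6, 19.0, 19.4 and 16.3 in *penk*+/+ chimeras (log2 difference -0.56, limma adjusted p = 0.867). The low value of *Ang4* in *penk*-/- replicate 4 had no counterpart in the alpha-defensins, whose sum was among the highest of its group in that mouse. Over the 8 libraries, r with the sum of the 7 genes was 0.145 for *Lyz1*, -0.33 for *Itln1*, -0.508 for *Mptx2* and 0.031 for *Ang4*. After the genotype means were subtracted, it was 0.398 for *Lyz1*, -0.374 for *Itln1*, -0.477 for *Mptx2* and -0.292 for *Ang4*. These differences from the alpha-defensins were not tested, as the latter were chosen on the contrast.

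*Mmp7*, which codes for the protease that processes the precursors, had 0, 718, 9129 and 431 normalized counts in *penk*-/- and 1162, 167, 2.04 and 8712 in *penk*+/+ chimeras (log2 difference -0.22, SE 2.96, limma adjusted p = 0.990). It was high in *penk*-/- replicate 3 and *penk*+/+ replicate 4 and varied with *Pbsn*, which codes for probasin, a prostate secretion (r = 0.988 over 8 libraries). *Pbsn* had 0, 7638, 105658 and 4803 in *penk*-/- and 13425, 2398, 0 and 111024 in *penk*+/+ chimeras. Of 8 listed genes of accessory sex glands, 6 were in the table, with summed levels of 11717 to 227592 in *penk*-/- and 10990 to 238452 in *penk*+/+ libraries. The sum of the 7 alpha-defensins had r = 0.303 with *Pbsn* and 0.368 with *Mmp7* over the 8 libraries, and 0.538 and 0.615 after the genotype means were subtracted. Without the 2 libraries with the most *Pbsn*, it averaged 64.5 ± 41.99 for *penk*-/- against 273 ± 102 for *penk*+/+ mice (SD, n = 3 each; log2 difference -2.23), and 6 of the 7 genes were lower without overlap, beside 7.0% of all genes with the same libraries left out.

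**Figure D4:**
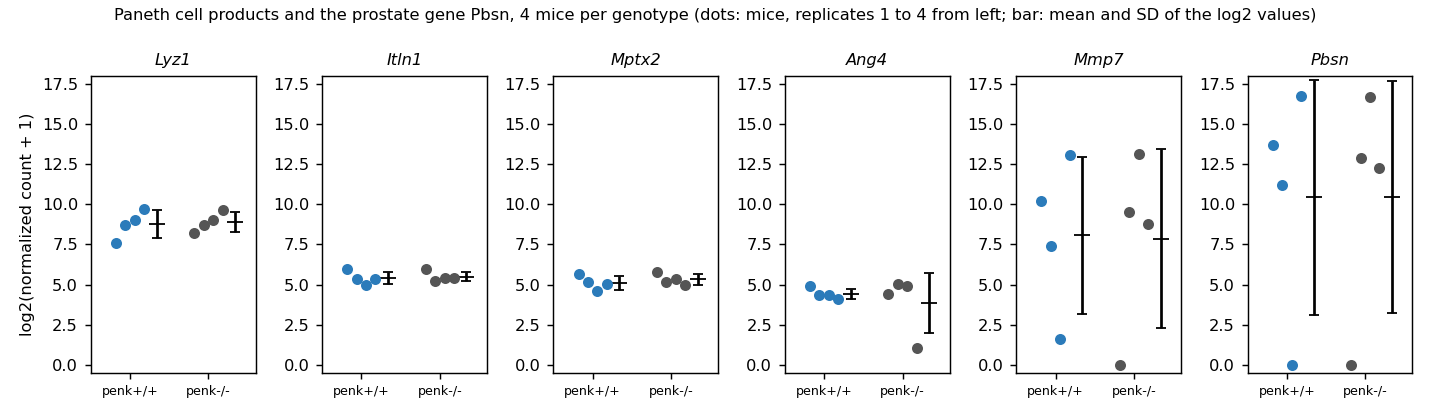
Log2(normalized count + 1) of 5 products of Paneth cells and of the prostate gene *Pbsn* in 4 *penk*+/+ (blue) and 4 *penk*-/- (grey) chimeras. Dots are mice and bars the mean and SD of the log2 values. The genotypes overlap in each panel, and *Mmp7* and *Pbsn* span the same mice from low to high.

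Among 18 genes of alpha-defensin processing and the Paneth cell program, 17 were tested and none was called, with a smallest adjusted p of 0.339 and a median log2 difference of 0.08. At an unadjusted p below 0.05 there were 4 higher and 3 lower genes in *penk*-/- chimeras, beside 9.63% of all 19127 genes tested in either direction. The 4 higher were *Kcnn4*, a potassium channel found in Paneth cells (log2 difference 0.27, limma adjusted p = 0.339), *Ripk2*, the kinase downstream of NOD2 (0.30, adjusted p = 0.400), *Sox9*, a transcription factor required for Paneth cells (0.29, adjusted p = 0.425), and the autophagy gene *Atg16l1* (0.14, adjusted p = 0.488). The 3 lower were *Nlrp6*, an inflammasome sensor of the epithelium (log2 difference -0.52, limma adjusted p = 0.341), *Tcf7l2*, the TCF factor of the crypt (-0.32, adjusted p = 0.399), and *Gfi1*, a transcription factor of secretory cells (-0.46, adjusted p = 0.495). These genes were named after their values were seen, and none of them passed the correction. The groups did not overlap for *Kcnn4*, *Ripk2* and *Atg16l1*, which were higher, nor for *Tcf7l2*, which was lower. Of all 19127 genes tested, 2.89% were higher and 2.74% lower without overlap. An exact permutation test gave a two-sided p = 0.0286 for each, the lowest value 4 mice against 4 can give. This p-value follows from the lack of overlap and adds nothing to it.

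**Figure D5:**
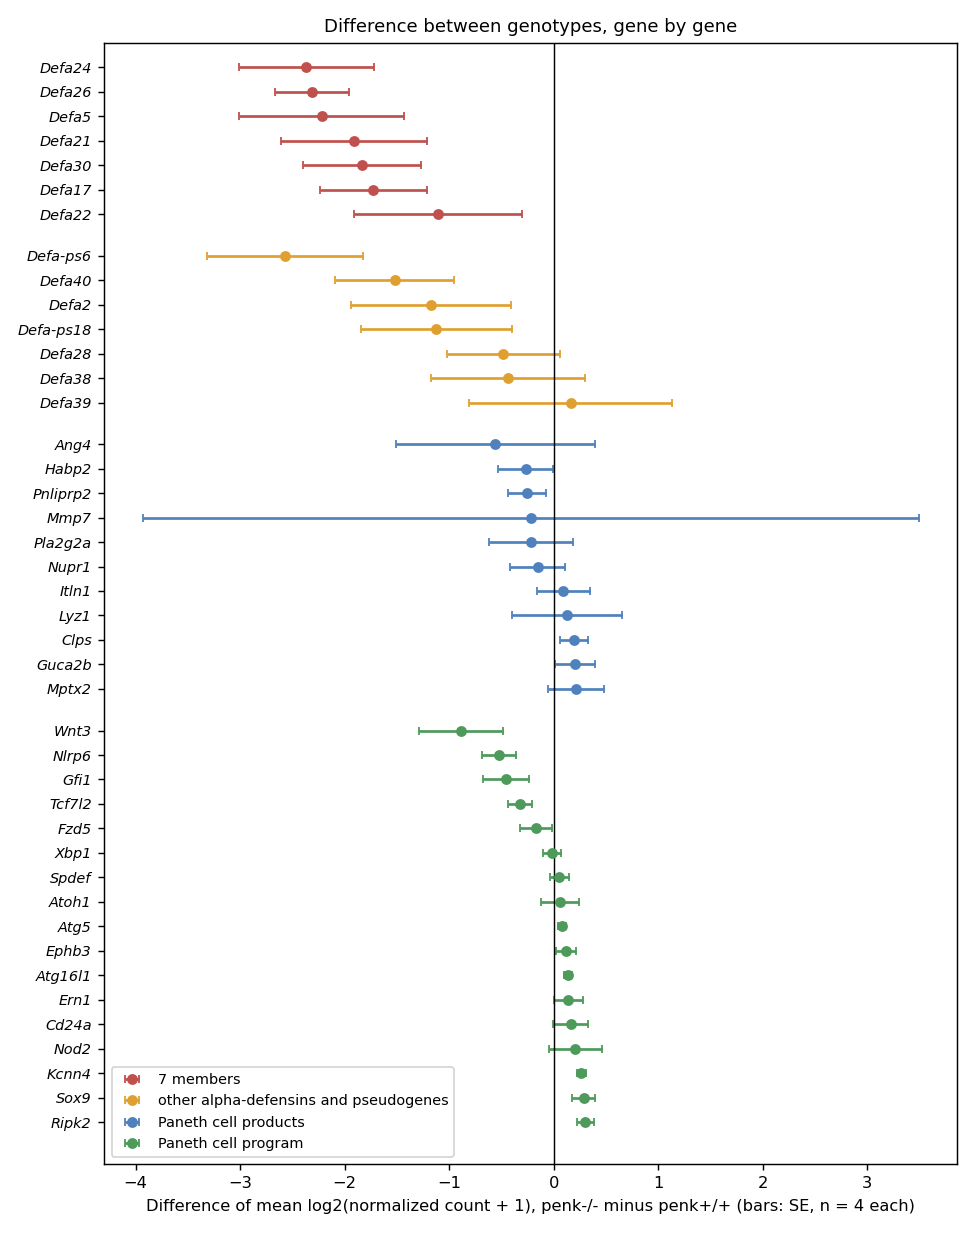
Difference of the mean log2(normalized count + 1) between 4 *penk*-/- and 4 *penk*+/+ chimeras for the 7 alpha-defensins (red), the other alpha-defensins and pseudogenes in the table (yellow), products of Paneth cells (blue) and genes of the Paneth cell program (green), with bars for the SE of the 2 group means. The 7 genes lie between -2.37 and -1.11, whereas the genes listed as Paneth cell products lie between -0.56 and 0.21.

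The colonic origin of the biopsies and the other cells they could hold were checked with marker lists. All 12 colon epithelium markers were in the table, summed to 510952 to 796943 normalized counts in *penk*-/- and 653186 to 849972 in *penk*+/+ libraries, with *Clca1* as the highest. Of 16 markers of small intestine enterocytes, 14 were in the table and 13 were tested. None was called, and 2 were lower at an unadjusted p below 0.05, beside 9.63% of all genes tested in either direction. The summed level of these markers was 21837 to 31661 in *penk*-/- and 32408 to 38021 in *penk*+/+ libraries. It differed without overlap, as the sum of the alpha-defensins did, and its part in their difference was not tested. The markers with the highest means over the 8 libraries were *Slc15a1* (11862), *Slc5a1* (7902) and *Apob* (7277), which made up most of the sum. The lowest means were those of *Slc2a2* (6.28), *Gata4* (17.0), *Alpi* (22.7), *Lct* (25.9) and *Sis* (28.5). Of the 14 markers, 10 had a lower and 4 a higher mean log2 value in *penk*-/- chimeras, with a median log2 difference of -0.24 over those tested. The 1 marker without overlap, and the highest, was *Slc15a1*, a peptide transporter, with 10230, 9094, 7136 and 10617 normalized counts in *penk*-/- and 16218, 13951, 14223 and 13429 in *penk*+/+ chimeras (log2 difference -0.65, limma adjusted p = 0.323). Without it, the markers summed to 14701 to 21431 in *penk*-/- and 18185 to 21804 in *penk*+/+ libraries, which overlap. The apolipoprotein genes *Apoa1* and *Apoa4* were the 2 listed markers that were not in the table, whereas *Apob* averaged 7277 over the 8 libraries. Of 10 neutrophil markers, 6 were in the table, summed to 79.8 to 129 in *penk*-/- and 72.2 to 120 in *penk*+/+ libraries, with *Csf3r* as the highest. The 4 that were not in the table were the granule genes *Mpo*, *Elane* and *Ngp* and the receptor gene *Cxcr2*. Neither enterocytes nor neutrophils are called absent because of the missing markers. No gene of the colon epithelium, neutrophil or accessory sex gland lists was called by limma, and 1 each of the neutrophil (higher) and accessory gland (lower) genes had an unadjusted p below 0.05.

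*Penk* itself, the gene deleted in the donor marrow, had 453, 512, 616 and 531 normalized counts in *penk*-/- and 473, 496, 560 and 636 in *penk*+/+ chimeras (log2 difference -0.03, limma adjusted p = 0.957). The recipients carry an intact *Penk* gene in their own tissue, so that the level in the biopsy is no check of the donor's genotype.

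Among 19037 genes outside the family, those whose log2 values followed the sum of the 7 genes most closely over the 8 libraries were *Tceal1* (r = 0.971), *Uty* (0.964), *Gm33167* (0.960), *Rab31* (0.934) and *C130026L21Rik* (0.933). *Tceal1* spanned only 122 to 138 normalized counts in *penk*-/- and 140 to 149 in *penk*+/+ chimeras. *Gm33167* had 12.1, 18.3, 21.8 and 23.2 in *penk*-/- and 41.1, 26.6, 49.1 and 30.0 in *penk*+/+ chimeras. After the genotype means were subtracted, the closest were *Bdnf* (r = 0.986), *Aif1l* (0.964), *Gm12349* (0.949), *A430103D13Rik* (0.943) and *Mad2l2* (0.938). *Bdnf*, which codes for a neurotrophin, had 18.2, 35.5, 40.0 and 44.2 in *penk*-/- and 22.4, 14.3, 22.5 and 20.6 in *penk*+/+ chimeras. It thus followed the alpha-defensins from mouse to mouse within a genotype but not between genotypes (r = -0.146 over the 8 libraries). With 8 libraries and this many genes, coefficients of this size are described and not tested.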

How the data were processed

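The authors prepared stranded poly-A paired-end libraries, ran FastQC on the reads, used STAR 2.7.8a for alignment to GRCm39 (Ensembl annotation) and for counting, and DESeq2 1.30.0 for their own comparison. Strand and multi-mapping settings of the counting are not given in the sources used here. The deposited values are a normalized signal: the count of each gene over a scaling factor of its library. All values in each library were whole multiples of a step (within 0.001 of a step), from which reads per gene were taken. All 8 libraries were used, grouped by the labels.

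Genotypes were compared with limma 3.58.1 (R 4.3.3; lmFit, eBayes with trend) on log2(value + 1), over 19127 genes with a mean of at least 10, without covariates, two-sided, with Benjamini-Hochberg adjustment at 0.05. The script was tested on simulated data. Exact permutation tests ran over 70 assignments. Differences of the alpha-defensins carry the SE of the 2 group means. The members, the gene lists and the tests were chosen with earlier results of these data known. Genes named are the members, other listed alpha-defensins above 10 in a library, called genes of the Paneth lists with *Lyz1*, *Mmp7*, *Itln1*, *Ang4* and *Mptx2*, the 5 genes closest to the sum with and without genotype means, and the highest marker of each tissue list. Others are said to be named after their values were seen, or bear on the check of a list. Transcripts were taken from GENCODE M39, and promoters from RefSeq. Python 3.11.15, numpy 2.4.6, pandas 2.3.3, scipy 1.17.1 and matplotlib 3.10.9 were used. Alternatives were pseudocounts of 0.1 and 8, other filters, quantile normalization, limma with no trend, a block for the replicate number, and leaving out each mouse.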

Additional observations from a re-analysis of the deposited data

Results flagged for a closer look

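A single library lay far from the rest of its genotype in 6 of 48 groups of 4, by the 95% critical value of Dixon's test on the gap to the nearest library over the range, and 2.4 are given by chance. *Defa26* in *penk*-/- chimeras stood out because of 1 read, with 1.10 normalized counts in replicate 4 and 0 in the other mice. The sum of the 7 alpha-defensin genes and pseudogenes outside those studied was low in *penk*+/+ replicate 2, with 20.9 against 64.7 to 68.5 in the other *penk*+/+ mice (gap 0.921 of the range), a mouse that was also lowest of its group for the sum of the genes studied. *Mmp7* was far above the others in *penk*-/- replicate 3, with 9129 against 0 to 718, and in *penk*+/+ replicate 4, with 8712 against 2.04 to 1162. *Pbsn* stood out in the same libraries, with 105658 in *penk*-/- replicate 3 against 0 to 7638, and 111024 in *penk*+/+ replicate 4 against 0 to 13425.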

How the results depend on the processing

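The log2 difference of the summed alpha-defensins stayed between -2.59 and -1.55 over 16 alternatives (leaving out each mouse, -2.28 to -1.55), and each of the 7 genes stayed negative over 91 (-4.76 to -0.484). Pseudocounts of 0.1 and 8 moved *Defa5* (-3.88 and -0.871), *Defa17* (-2.77 and -0.631), *Defa21* (-2.95 and -0.763) and *Defa26* (-4.76 and -0.666) by over 1 SD, as did 8 for *Defa24* (-1.45). Of the 7 genes, 5 to 6 were lower without overlap, the 6 only where mice were left out. Lack of overlap is more frequent with fewer mice. Of all genes, 2.45% were lower without overlap with all 8 libraries, and 7.0% without the 2 libraries with the most *Pbsn*. Over all genes, limma called 0 (1842 at an unadjusted p below 0.05), but 1 with quantile normalization, and 0 to 6 when each mouse was left out, the 6 without *penk*-/- replicate 1. None of the Paneth cell genes was called in 16 settings. Uncalled differences changed sign for *Lyz1* (-0.26 to 0.43 when each mouse was left out) without *penk*-/- replicate 4 (-0.12) or *penk*+/+ replicate 1 (-0.26), for *Itln1* (-0.057 to 0.27) without *penk*-/- replicate 1 (-0.057) or *penk*+/+ replicate 3 (-0.049), for *Ang4* (-0.96 to 0.37) without *penk*-/- replicate 4 (0.37), and for *Mmp7* (-2.37 to 2.40) with a pseudocount of 8 (0.093) and without *penk*-/- replicate 1 (2.40), *penk*+/+ replicate 1 (0.49) or *penk*+/+ replicate 4 (1.45). The planned edgeR and DESeq2 fits on recovered reads were not run.

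The labels do not say whether the replicate numbers pair the mice. Deviations of same-numbered libraries correlated at 0.145, -0.044, -0.321 and -0.162, and not every library was closest to its own number. Such correlations cannot exclude a factor shared by same-numbered mice. With the replicate number as a block, limma called 1 gene, and the log2 difference of the sum was -2.03. In this fit 2938 genes had an unadjusted p below 0.05, against 1842 without the block.

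Depth limits the 5 genes with 22 to 55 reads in all. The order of their levels is not resolved.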

Other observations

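Of 12 listed beta-defensins, the epithelial family next to the alpha-defensins in function, 2 were in the table and neither was called by limma. *Defb45* had 251, 300, 216 and 266 normalized counts in *penk*-/- and 316, 302, 263 and 204 in *penk*+/+ chimeras (log2 difference -0.06, adjusted p = 0.938 with limma). *Defb1* had 0, 27.5, 755 and 15.5 in *penk*-/- and 126, 15.2, 0 and 797 in *penk*+/+ chimeras (log2 difference -0.55, adjusted p = 0.963 with limma), and was highest in the libraries with the most *Pbsn*. *Wnt3*, the Wnt ligand that Paneth cells supply to neighbouring stem cells, lay below the minimum of the fit, with 4.04, 2.29, 2.91 and 9.94 in *penk*-/- and 8.71, 7.61, 7.15 and 11.1 in *penk*+/+ chimeras.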
